A study of Homo sapiens with 6 samples.

Results

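WNT5A, 4 other Wnt ligand genes, 4 receptor genes and the long noncoding RNA gene next to WNT5A were examined in KYSE450 and KEAP1null-KYSE450 cells. The ligands were WNT5A, WNT5B, WNT7A, WNT7B and WNT10A, the receptors were ROR1, ROR2, RYK and FZD6, and the noncoding neighbour was AC121764.1. These 10 genes, of 58884 in the expression matrix, were picked by symbol after differences between the same libraries were known, so their values are given as a description without a test. KYSE450 is a human esophageal squamous cell carcinoma (ESCC) line with wild-type NRF2. KEAP1null-KYSE450 was derived from it by CRISPR-Cas9 with a guide against exon 2 of KEAP1 followed by single-cell cloning, so it represents 1 clone, and the loss of KEAP1 cannot be told apart from other differences between that clone and its parent. Each line had 3 RNA sequencing libraries, both were grown without treatment in the same RPMI1640 medium, and no source states that the libraries came from separate cultures. The p-values therefore measure only the spread between these libraries, which may be technical. KEAP1 is the adaptor that hands NRF2, the transcription factor of the antioxidant response, to a ubiquitin ligase for degradation.

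Wnt proteins are secreted, lipid-modified ligands that bind Frizzled (FZD) receptors at the cell surface. In the beta-catenin branch, Wnt, Frizzled and LRP5 or LRP6 together stabilise beta-catenin, which then acts with TCF/LEF factors on target genes. WNT5A is the classic ligand of the beta-catenin-independent branches, which signal through ROR1, ROR2 and RYK to the cytoskeleton, cell polarity and calcium, and it has been studied mostly in cell migration and tissue patterning.

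WNT5A lies on the minus strand of chromosome 3 at 55465715 to 55490539 (hg38), and AC121764.1, annotated with 4 exons, lies on the same strand at 55493830 to 55505261. The 3′ end of AC121764.1 is separated from the 5′ end of WNT5A by 3290 bases. The RefSeq start regions of WNT5A are printed because it was the ligand with the largest difference between the lines. Each run is 300 bases, 5′ to 3′ on the minus strand, with the 250 bases before the annotated start in lower case and the 50 bases from that start in capitals. The WNT5A windows, chr3:55487257-55487556 and chr3:55481349-55481648, are from RefSeq (GRCh38.p14) and mark starts inside the span that the hg38 annotation gives to the gene.
WNT5A first RefSeq start: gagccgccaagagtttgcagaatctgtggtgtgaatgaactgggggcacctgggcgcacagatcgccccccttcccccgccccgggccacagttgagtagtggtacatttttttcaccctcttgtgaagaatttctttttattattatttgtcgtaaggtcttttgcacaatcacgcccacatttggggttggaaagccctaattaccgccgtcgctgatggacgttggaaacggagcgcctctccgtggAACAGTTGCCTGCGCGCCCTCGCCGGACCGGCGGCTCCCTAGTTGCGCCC
WNT5A second RefSeq start: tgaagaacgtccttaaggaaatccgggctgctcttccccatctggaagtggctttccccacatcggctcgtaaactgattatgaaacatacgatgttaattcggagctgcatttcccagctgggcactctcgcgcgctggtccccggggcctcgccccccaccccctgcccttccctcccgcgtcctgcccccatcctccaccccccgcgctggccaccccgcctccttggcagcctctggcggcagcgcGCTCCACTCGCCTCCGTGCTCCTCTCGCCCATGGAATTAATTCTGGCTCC
Of the bases in these windows, 56.3% and 63.7% were G or C at the first and second start. An alignment search of chromosome 3 for matches of at least 150 bases found none elsewhere for either window. The windows were searched on both strands for TGACNNNGC, the core of the antioxidant response element that NRF2 binds, and for CTTTGA, the core bound by TCF/LEF factors (the letters TGA can be shared by both). Neither motif occurred in the printed windows or in the other RefSeq windows of these genes, 9 windows in all for 7 of the 10 genes. Among 35116 RefSeq windows of the same length, 13.3% held the first motif and 12.9% the second. The absence concerns these windows alone. WNT5A alone of the 10 genes is in the NRF2 target gene set listed with the study. Among the other Wnt pathway genes examined below, DVL2, FZD7 and FZD10 are in that set. Whether NRF2 acts on WNT5A in these cells was not tested.

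The libraries held 53027359 to 61543442 reads assigned to genes, as recovered from the normalized counts, and 3 reads in a library, the level taken here as the floor, equalled 2.77 to 3.21 normalized counts. Of the 58884 genes, 16701 had a mean of at least 10 normalized counts and were tested with limma on log2(normalized count + 1). A gene was called when its Benjamini-Hochberg adjusted p was under 0.05 and its log2 fold change was at least 1 in size, with fold changes given as KEAP1null-KYSE450 over KYSE450. By this rule 2045 genes were higher and 999 lower in KEAP1null-KYSE450, and after quantile normalization 1388 were higher and 1289 lower. KEAP1 itself had 5760, 5226 and 5146 normalized counts in KYSE450 and 5737, 4906 and 5317 in KEAP1null-KYSE450 (limma, log2 fold change -0.02, adjusted p = 0.90), but a small edit in an exon need not lower the count of a gene, so this value does not check the labels. All 10 squamous epithelial markers examined were expressed above the minimum in both lines, with summed counts of 479943 to 665375 in KYSE450 and 633203 to 785723 in KEAP1null-KYSE450. The markers were not alike, with mean counts of 208100 and 568248 for KRT5 but 2401 and 34.5 for KRT14 in KYSE450 and KEAP1null-KYSE450. Means were also lower in KEAP1null-KYSE450 for KRT13 (128788 and 48425), KRT6A (71578 and 2738), KRT17 (50937 and 1763) and DSP (36624 and 11111). TP63 and CDH1 were lower as well, and the libraries of the lines overlapped for DSG3 and EPCAM. KRT5 alone was higher without overlap, so the summed counts do not stand for the single markers. Of 9 fibroblast markers, a cell type known for WNT5A expression, COL1A1 alone passed the minimum and was at 701 ± 122 in KYSE450 and 388 ± 50.0 in KEAP1null-KYSE450 (SD, n = 3), COL1A2, DCN and FAP were at or near 0 in every library. PDGFRB had 0, 1.01 and 0 normalized counts in KYSE450 and 12.9, 5.10 and 0 in KEAP1null-KYSE450, and LUM had 6.42, 14.2 and 14.0 and then 0 in every library. The part of other cell types in the results was not tested. The summed fibroblast counts were 624 to 856 and 355 to 437. The summed counts of 5 endothelial markers were 59.9 to 75.8 and 48.0 to 70.6, and those of 5 leukocyte markers 17.2 to 31.0 and 3.03 to 7.14.

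WNT5A RNA went from a trace to one of the more abundant messages of the cell. KYSE450 libraries had 75.9, 65.7 and 45.7 normalized counts and KEAP1null-KYSE450 libraries 51309, 46742 and 43622. Every KEAP1null-KYSE450 library was far above every KYSE450 library, and the means, 62.4 ± 15.4 and 47224 ± 3866 (SD, n = 3), differed 756-fold, or by 9.57 on the log2 scale. Only 3 of the 16701 genes tested had a larger log2 increase. WNT5A took 7.96e-05% to 0.000134% of all normalized counts in KYSE450 and 0.0782% to 0.0922% in KEAP1null-KYSE450. Per kb of exon, its level was 8.73 ± 2.15 normalized counts in KYSE450 and 6602 ± 540 in KEAP1null-KYSE450 (SD, n = 3), which placed it 14465th and 289th among 16630 genes ranked by level per kb. In these bulk libraries, a change in the number of cells that carry an RNA and a change in the RNA per cell cannot be told apart.

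AC121764.1, whose function is not described in the sources used here, went from almost no reads to a well-detected RNA. Its normalized counts were 0, 4.04 and 0 in KYSE450 and 2910, 3045 and 2335 in KEAP1null-KYSE450, where the mean was 2764 ± 377 (SD, n = 3). In reads, 4 were seen in all KYSE450 libraries together and 8456 in all KEAP1null-KYSE450 libraries, a depth-corrected ratio of 2073 with a 95% counting interval of 809 to 7611. All 4 reads came from KYSE450 library 2, one of the 2 libraries, with KEAP1null-KYSE450 library 3, whose recovery of reads was not accepted because 1 read there is worth 1.01 normalized counts, too near 1 to be told from it. With so few reads in KYSE450, the log2 difference of 10.65 depended on the pseudocount and ranged from 7.94 to 12.95 over the settings tried. In the 3 KEAP1null-KYSE450 libraries AC121764.1 amounted to 5.35% to 6.51% of the WNT5A count. Its annotated exons are far shorter, and on the per-kb scale it stood at 68.0% to 82.8% of the WNT5A level. None of its exon bases lies inside a WNT5A exon.

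**Figure D1:**
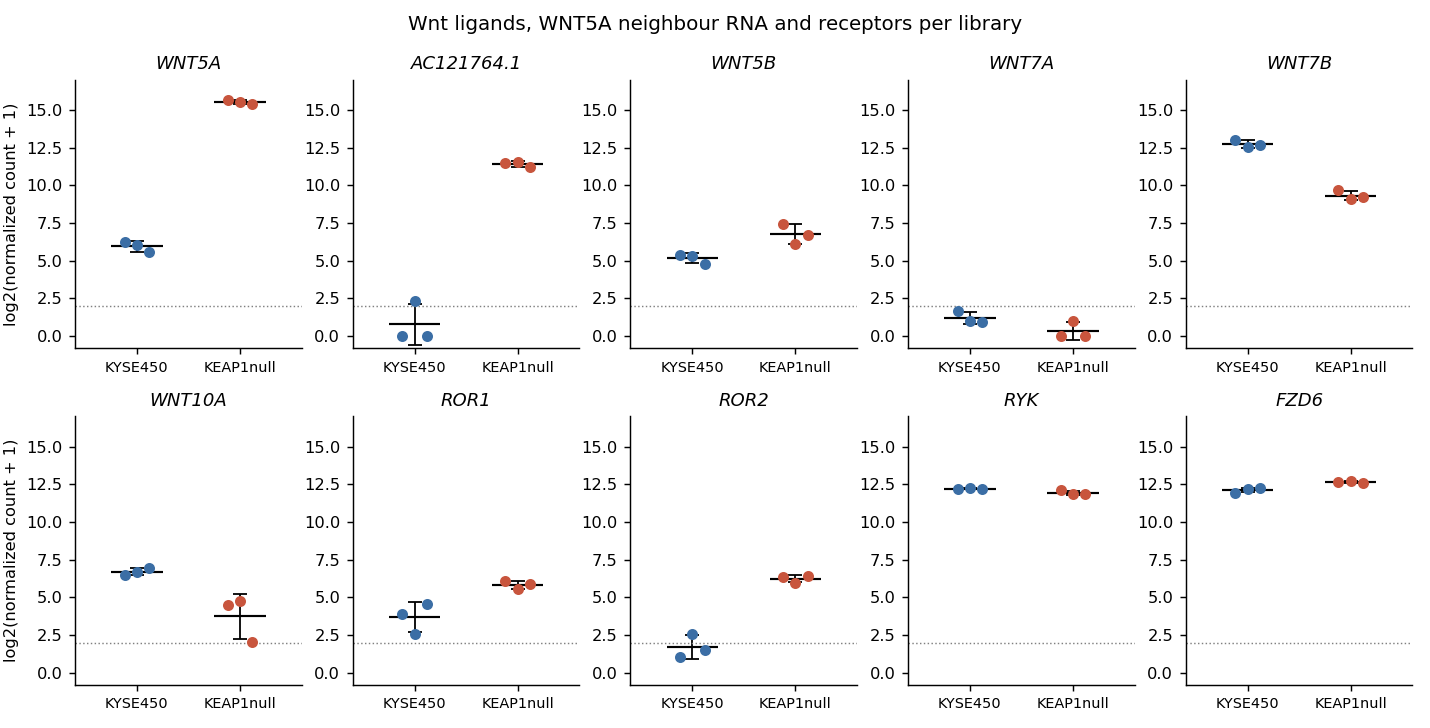
Normalized counts of the 10 genes in each library, as log2(normalized count + 1) on a shared vertical axis, with points for libraries, the wide bar for the mean and the error bar for the SD (n = 3). The dotted line marks 3 normalized counts, about 3 reads. WNT5A and AC121764.1 show the widest gaps between the lines, with higher values in KEAP1null-KYSE450, WNT7B and WNT10A are lower there, and WNT7A lies near or under the dotted line in both lines.

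WNT5B, the closest paralogue of WNT5A and also a ligand of the beta-catenin-independent branches, was low in both lines. KYSE450 libraries had 40.6, 39.4 and 26.1 normalized counts and KEAP1null-KYSE450 libraries 172, 69.3 and 103. The ranges did not overlap, but the SD of 52.2 around the KEAP1null-KYSE450 mean of 115 was large beside the counting SD of 10.5, so these libraries differed among themselves by more than counting error. The means differed 3.24-fold, and per kb WNT5B reached 27.0 in KEAP1null-KYSE450 against 6602 for WNT5A. The longest reading frames of the 2 genes, 1143 and 1080 bases, were identical at 81.1% of aligned bases and their predicted proteins at 80.5% of aligned residues. Their longest shared exact run was 35 bases, and how reads that match both genes were assigned is not given in the sources used here.

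WNT7B, a ligand of the beta-catenin branch in epithelia, was the leading Wnt gene of KYSE450 and was much lower in KEAP1null-KYSE450. Its normalized counts were 8222, 6038 and 6399 in KYSE450 and 819, 534 and 593 in KEAP1null-KYSE450. The means, 6886 ± 1171 and 649 ± 151 (SD, n = 3), were 10.6-fold apart, a log2 difference of -3.42. Per kb it moved from 1356 ± 231 to 128 ± 29.6 (SD, n = 3), from rank 1847 to rank 8865.

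WNT10A, a beta-catenin branch ligand known from teeth, hair and skin, was lower in KEAP1null-KYSE450 as well. It had 88.8, 102 and 124 normalized counts in KYSE450 and 21.2, 25.5 and 3.03 in KEAP1null-KYSE450, the last of which was 3 reads. The means were 105 ± 17.8 and 16.6 ± 11.9 (SD, n = 3), a 6.33-fold difference and -2.98 on the log2 scale. Without KEAP1null-KYSE450 library 3 the log2 difference was -2.11. WNT7A, the paralogue of WNT7B, had 2.14, 1.01 and 0.93 normalized counts in KYSE450 and 0, 1.02 and 0 in KEAP1null-KYSE450. All 6 values were at or under 3 reads, so no difference in WNT7A was detectable at this depth.

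The ligand repertoire turned from WNT7B to WNT5A. When the levels per kb of all 19 Wnt genes were summed, WNT7B made up 70.0%, 64.9% and 68.3% in KYSE450 and 1.89%, 1.39% and 1.59% in KEAP1null-KYSE450. WNT5A made up 0.46%, 0.50% and 0.35% and then 84.1%, 86.4% and 83.1%. The sum itself was 1996 ± 274 normalized counts per kb in KYSE450 and 7811 ± 632 in KEAP1null-KYSE450 (SD, n = 3). In KYSE450, WNT10B followed WNT7B with 12.5 ± 1.27% and WNT11 with 7.48 ± 1.44%, whereas WNT16, at 3.18 ± 0.61%, and WNT3, at 2.77 ± 0.08%, were within their spread of each other (SD, n = 3). WNT5A and WNT5B, at 0.44 ± 0.08% and 0.42 ± 0.09%, were also within their spread there. In KEAP1null-KYSE450, WNT11 was second with 9.79 ± 1.54%, and WNT7B at 1.62 ± 0.25% (SD, n = 3) did not differ beyond its spread from WNT10B, at 1.49%, 1.44% and 1.57%. A share can fall while its gene's own level does not. WNT3 fell from 2.77% to 0.63% of the sum, although its normalized counts were 336, 272 and 283 in KYSE450 and 267, 282 and 239 in KEAP1null-KYSE450.

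**Figure D2:**
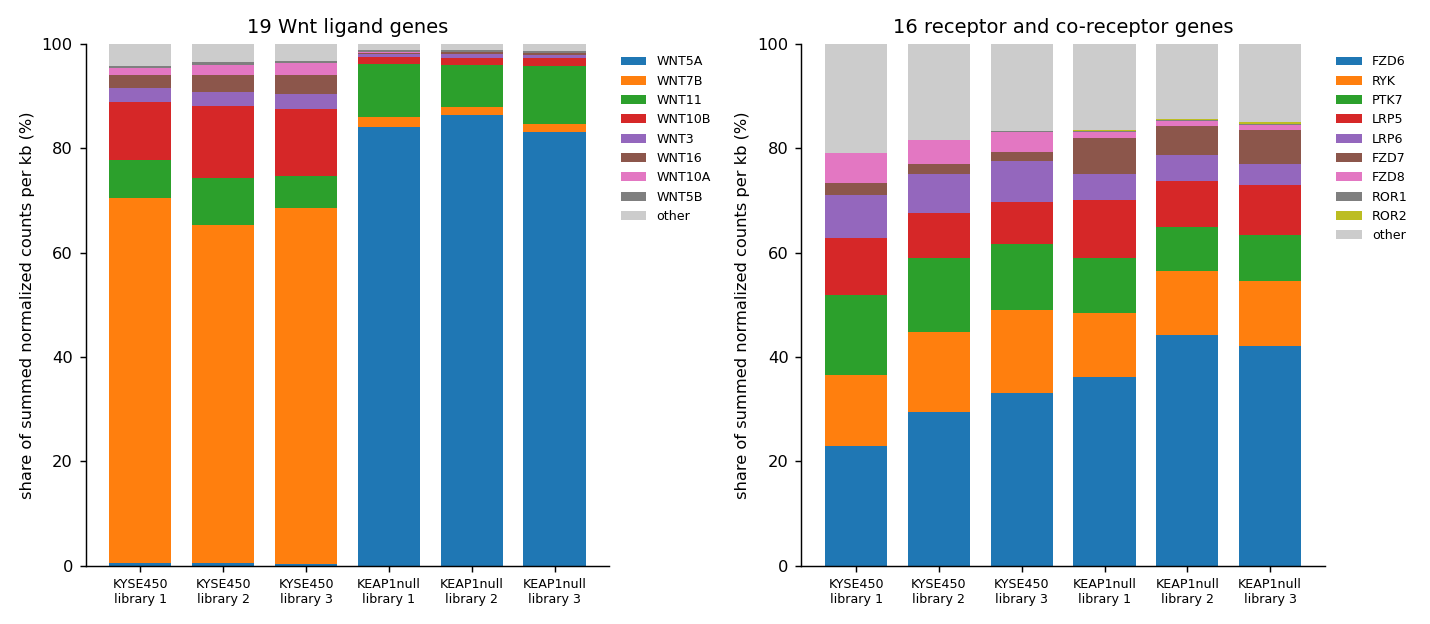
Stacked shares (percent) of the summed normalized counts per kb in each library, for 19 Wnt ligand genes on the left and 16 receptor and co-receptor genes on the right. WNT7B fills 64.9% to 70.0% of the ligand bars in KYSE450 and WNT5A 83.1% to 86.4% in KEAP1null-KYSE450, while FZD6 is the largest receptor segment in all 6 libraries.

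Among the receptors of WNT5A, ROR2 and ROR1 were low in KYSE450 and higher, though still low, in KEAP1null-KYSE450. ROR2, a receptor tyrosine kinase-like protein that binds WNT5A, had 1.07, 5.05 and 1.86 normalized counts in KYSE450 and 80.3, 62.2 and 82.7 in KEAP1null-KYSE450. In KYSE450, 2 libraries held no more than 3 reads, and over all libraries 8 reads stood against 230, a depth-corrected ratio of 28.2 with a 95% counting interval of 14.1 to 66.1, and 5 of the 8 reads came from KYSE450 library 2. The log2 difference was 4.52 and ranged from 2.75 to 5.03 over the settings tried. ROR1, the paralogue of ROR2, had 13.9, 5.05 and 22.4 normalized counts in KYSE450 and 66.4, 45.9 and 59.5 in KEAP1null-KYSE450. The libraries of the lines did not overlap, and the means of 13.8 ± 8.66 and 57.3 ± 10.5 (SD, n = 3) were 4.16-fold apart. In KEAP1null-KYSE450 the levels were 8.53 per kb for ROR1 and 12.8 for ROR2, beside 482 for RYK and 1580 for FZD6.

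RYK and FZD6 were abundant in both lines, with RYK slightly lower and FZD6 1.43-fold higher in KEAP1null-KYSE450. RYK, an atypical receptor with an extracellular Wnt-binding domain, had 4673, 4904 and 4606 normalized counts in KYSE450 and 4404, 3710 and 3695 in KEAP1null-KYSE450. Its log2 difference of -0.27 shrank to -0.11 after quantile normalization. FZD6, a Frizzled receptor linked to planar cell polarity, had 3943, 4730 and 4773 normalized counts in KYSE450 and 6432, 6631 and 6203 in KEAP1null-KYSE450, means of 4482 ± 467 and 6422 ± 214 (SD, n = 3). Its log2 difference was 0.52 and became 0.68 after quantile normalization. FZD6 was the most abundant per kb of 16 receptor and co-receptor genes in each line, with 28.5 ± 5.08% of their sum in KYSE450 and 40.8 ± 4.16% in KEAP1null-KYSE450 (SD, n = 3). RYK made up 14.9 ± 1.18% and 12.4 ± 0.11%, whereas ROR1 and ROR2 together stayed under 1% in every library. The summed receptor level was 3902 ± 332 normalized counts per kb in KYSE450 and 3897 ± 417 in KEAP1null-KYSE450 (SD, n = 3), a difference smaller than the spread in either line.

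Of the 10 genes, 9 passed the minimum mean, and AC121764.1 and ROR2 did so only through KEAP1null-KYSE450, since their KYSE450 means of 1.35 and 2.66 lay under 10. The libraries of the lines did not overlap for these 9 genes, as for 57.8% of all genes tested, and nothing is read from this count because the genes were chosen on this contrast. WNT7A was the gene that did not pass.

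The other genes of the pathway were taken as whole families, and the results of these 117 genes carry the limma test. Of the 92 that passed the minimum, 11 were higher and 8 lower in KEAP1null-KYSE450, 20.7% of those tested beside 18.2% of all genes tested. By direction, 12.2% of all genes tested were called higher and 5.98% lower. The median log2 fold change of the 92 genes was -0.20, beside 0.004 over all genes tested. The share of the pathway that was called was thus close to the background when pooled, but it differed between lists. It was 61.5% of 13 genes tested for secretion and extracellular inhibitors and 44.4% of 9 for other ligands. It was 5.56% of 18 for the beta-catenin branch and 6.9% of 29 for planar polarity and calcium. The remaining lists lay between 16.7% and 30.8%. The lists are small and were not tested as sets. A further 30 genes had an adjusted p under 0.05 with a smaller fold change.

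Of the 9 other ligand genes tested, 2 rose and 2 fell. WNT11, a ligand of the beta-catenin-independent branches, had 399, 391 and 269 normalized counts in KYSE450 and 2044, 1455 and 1941 in KEAP1null-KYSE450, a log2 fold change of 2.37 (limma, adjusted p = 3.4e-07). WNT3A, the prototype of the beta-catenin branch, was called higher with a log2 fold change of 1.23 (adjusted p = 0.028), but the libraries of the lines overlapped. The WNT3A call was lost when KYSE450 library 2 or 3 or KEAP1null-KYSE450 library 1 or 3 was left out, with log2 fold changes of 1.14, 0.78, 1.15 and 1.14, and under 4 other settings. WNT10B fell from 642 ± 30.5 to 305 ± 23.7 normalized counts (SD, n = 3), or by 1.07 on the log2 scale (limma, adjusted p = 3.2e-05). WNT16 fell by 1.49 (adjusted p = 0.00034).

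Of the 12 other receptor genes, all tested, FZD7 rose and FZD8 fell. FZD7, a Frizzled used in both branches, went from 425, 344 and 270 normalized counts to 1375, 954 and 1077 (log2 fold change 1.72, limma, adjusted p = 7.9e-06). FZD8 went from 984, 745 and 572 to 185, 128 and 137 (log2 fold change -2.33, adjusted p = 2.1e-06). Among the 10 Frizzled genes, FZD7 thereby moved from 3.57% to 10.0% of the summed level per kb and FZD8 from 8.96% to between 1.32% and 1.73%, while FZD6 held 52.8 ± 7.72% and 64.4 ± 4.16% (SD, n = 3). The co-receptors were not called. LRP5 had a log2 fold change of 0.10 (adjusted p = 0.64), LRP6 of -0.75 (adjusted p = 0.00076) and PTK7, a co-receptor of the planar polarity branch, of -0.62 (adjusted p = 0.006).

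In the list of ligand secretion genes and extracellular inhibitors, 4 of the 13 genes tested were higher and 4 lower. SOST, which encodes the LRP-binding inhibitor sclerostin, had 0, 10.1 and 2.80 normalized counts in KYSE450 and 338, 224 and 281 in KEAP1null-KYSE450 (log2 fold change 6.32, limma, adjusted p = 8.5e-06), and its fold change ranged from 4.39 to 7.59 over the settings. SOST passed the minimum mean only through KEAP1null-KYSE450, so it could hardly be called lower. SOSTDC1, a relative of sclerostin, rose from 135 ± 18.1 to 676 ± 53.5 (SD, n = 3), and APCDD1, a membrane inhibitor of Wnt, from 102 ± 39.5 to 412 ± 36.8 (SD, n = 3). WIF1, a secreted protein that binds Wnts, had a log2 fold change of 2.55 (adjusted p = 0.014) that was 1.41 without KYSE450 library 3. The WIF1 call was lost with eBayes without trend, at the same fold change, and with edgeR and DESeq2 on 4 libraries, at 2.09 and 2.05. In the other direction, DKK1, a secreted blocker of LRP5 and LRP6, fell from 745 ± 188 to 125 ± 22.2 (SD, n = 3), or by 2.56 on the log2 scale (adjusted p = 6.5e-07). DKK3 fell by 1.36, KREMEN2, a receptor for DKK proteins, by 1.29, and TRABD2A, a protease that cleaves Wnt ligands, by 3.10. WLS, the carrier that brings Wnt proteins to the cell surface, had 9055 ± 831 and 9761 ± 1795 normalized counts (SD, n = 3, adjusted p = 0.55). PORCN, another secretion gene of the list, had 297 ± 61.6 in KYSE450 and 187 ± 21.1 in KEAP1null-KYSE450 (SD, n = 3). Its log2 fold change of -0.64 (limma, adjusted p = 0.014) was short of the fold required. In the R-spondin module, which controls the level of Frizzled receptors at the surface, LGR4 fell by 1.37 (adjusted p = 7.8e-07) and the other 3 genes tested were not called.

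Inside the cell, few pathway genes were called. In the beta-catenin branch 1 of 18 genes tested was called, the transcription factor LEF1, which rose from 381 ± 57.3 to 1257 ± 66.2 normalized counts (SD, n = 3, log2 fold change 1.73, limma, adjusted p = 5.5e-07). CTNNB1, which encodes beta-catenin, had a log2 fold change of 0.37 (adjusted p = 0.0073). Of 13 beta-catenin target genes tested, 3 were higher and 1 lower. AXIN2, a common reporter of the branch, rose from 16.0, 22.2 and 18.6 normalized counts to 88.6, 81.6 and 104 (log2 fold change 2.21, adjusted p = 7.6e-05). The other 3 were LEF1, APCDD1 and DKK1, which also stand in the lists above. MYC and CCND1 had log2 fold changes of 0.30 and -0.21, and CD44 of -0.89, all short of the fold required. In the planar polarity and calcium branch 2 of 29 genes tested were called, both higher. CAMK2B, a subunit of the calcium- and calmodulin-dependent kinase, had 56.7, 16.2 and 36.4 normalized counts in KYSE450 and 579, 568 and 552 in KEAP1null-KYSE450 (log2 fold change 4.09, adjusted p = 1.2e-06), and PRICKLE2, a core planar polarity protein, had a log2 fold change of 1.51 (adjusted p = 0.0026). The small GTPases RHOA and RAC1, which carry the signal to the cytoskeleton, had log2 fold changes of -0.21 and -0.46.

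**Figure D3:**
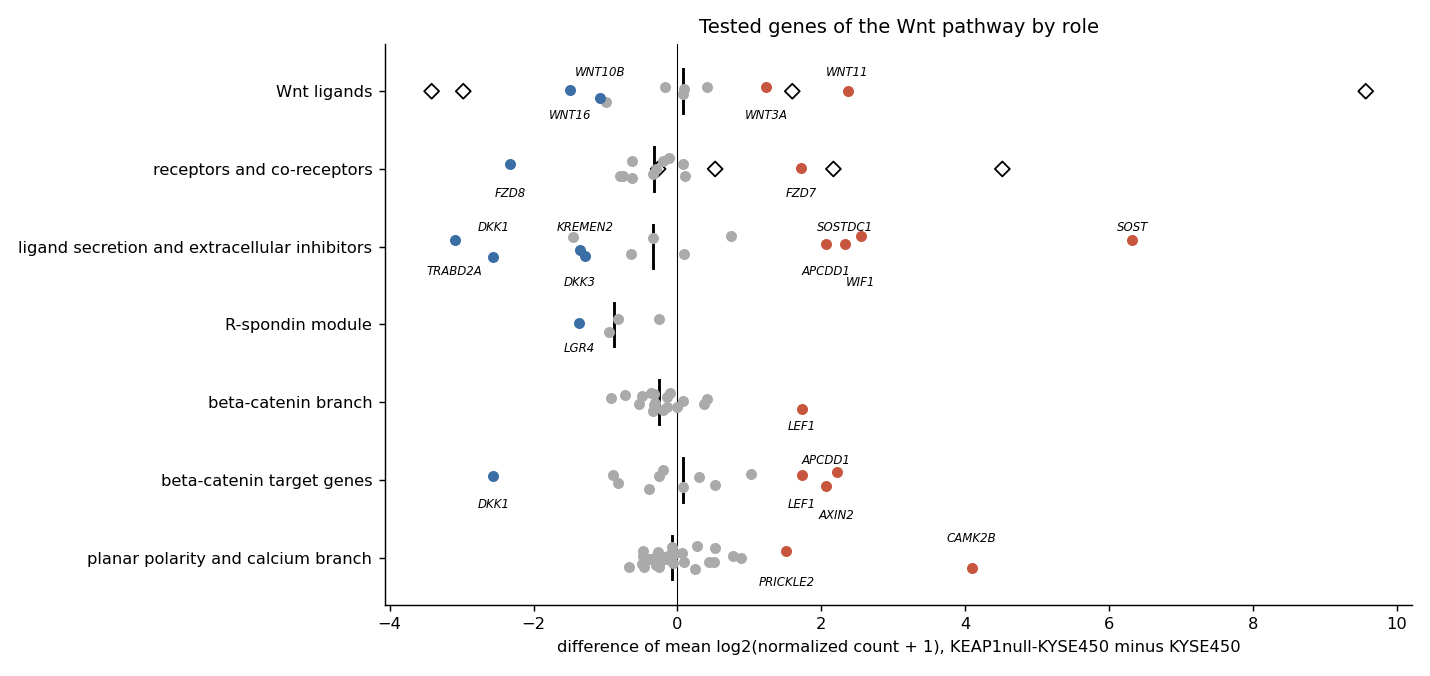
Differences of mean log2(normalized count + 1), KEAP1null-KYSE450 minus KYSE450, for tested Wnt pathway genes in rows by role. Red and blue points were called higher and lower, grey points were not called, open diamonds are the 8 ligands and receptors described without a test, and the black bar is the median of the tested points. WNT5A at 9.57 and SOST at 6.32 lie farthest to the right.

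Among the neighbours of WNT5A, ERC2 was higher in KEAP1null-KYSE450 too, and the others that passed the minimum did so only through that line. The annotation places 19 genes within 1 Mb of the WNT5A start, of which 13 had no more than 3 reads in any of the 6 libraries and 5 passed the minimum. Besides WNT5A and AC121764.1 these were ERC2, CACNA2D3 and WNT5A-AS1, and all 3 were called higher, beside 12.2% of all genes tested. CACNA2D3 and WNT5A-AS1, with KYSE450 means of 9.04 and 0.36, passed the minimum only through KEAP1null-KYSE450. Such genes could hardly be called lower, so nothing is read from this count. ERC2, which encodes a scaffold of the presynaptic active zone and lies on the minus strand at 55508311 to 56469095, had 11.8, 12.1 and 24.2 normalized counts in KYSE450 and 619, 818 and 737 in KEAP1null-KYSE450 (log2 fold change 5.48, limma, adjusted p = 1.1e-08). Its 3′ end is 3049 bases from the 5′ end of AC121764.1, so that ERC2, AC121764.1 and WNT5A follow one another on the same strand. CACNA2D3, a calcium channel subunit gene on the plus strand 391158 bases beyond the other end of WNT5A, had 9.63, 9.10 and 8.39 normalized counts and then 81.2, 57.1 and 62.5 (log2 fold change 2.74, adjusted p = 6.4e-05).

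WNT5A-AS1, on the plus strand at 55487699 to 55488308 within the span of WNT5A, had 1.07, 0 and 0 normalized counts in KYSE450 and 57.2, 74.4 and 79.7 in KEAP1null-KYSE450. In reads, 1 stood against 214, a depth-corrected ratio of 210 with a 95% counting interval of 37.3 to 8327. Its count was 0.112% to 0.183% of that of WNT5A in KEAP1null-KYSE450. None of its 500 exon bases lies in a WNT5A exon, and it lies upstream of both RefSeq starts of WNT5A printed above. The sources used here do not state whether counting used the strand. Its reads therefore cannot be told apart from unspliced WNT5A RNA begun farther upstream, within the annotated span of the gene.

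The nearest tested genes beyond 1 Mb, picked after their values had been seen, did not reach the fold required. On the side of lower coordinates, SELENOK, ACTR8, IL17RB and AC012467.2, 1599 to 1629 kb away, had log2 fold changes of -0.03, -0.24, -0.20 and 0.67. On the other side, CCDC66 at 1067 kb, FAM208A at 1130 kb, ARHGEF3 at 1237 kb and SPATA12 at 1570 kb had 0.52, 0.46, 0.01 and 0.02. Of these 8 genes, CCDC66, FAM208A and AC012467.2 were higher in KEAP1null-KYSE450 with limma adjusted p of 0.0013, 0.0014 and 0.041, below the fold required for a call.

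**Figure D4:**
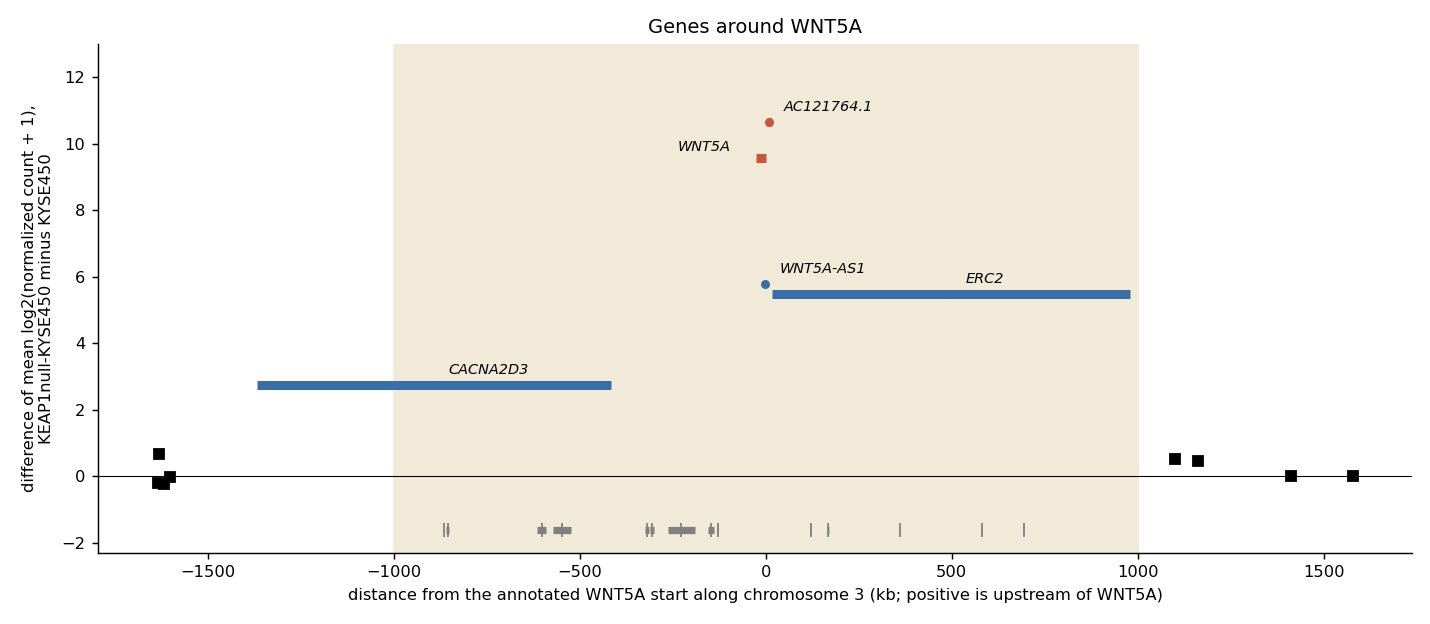
Difference of mean log2(normalized count + 1), KEAP1null-KYSE450 minus KYSE450, against distance from the annotated WNT5A start along chromosome 3 in kb, with bars spanning each gene. The shaded band is 1 Mb to either side, red marks WNT5A and AC121764.1, blue the other tested genes in the band, black tested genes outside it and grey ticks genes below the minimum mean, which have no value on the vertical axis. The 5 tested genes of the band lie between 2.74 and 10.65, and the black squares between -0.24 and 0.67.

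Tested genes within 1 Mb of the other members gave a mixed picture. Over all genes tested, 12.2% were called higher and 5.98% lower. Around FZD6, 6 of 15 tested genes were called higher and none lower, with a median log2 fold change of 0.93, and around WNT5B, 5 of 10 were higher and 1 lower, with a median of 0.87. These medians were larger than the log2 difference of FZD6 itself and smaller than that of WNT5B. Around WNT7B, 1 of 27 tested genes was called, and it was higher. Around WNT10A, 5 of 38 were higher and 1 lower, around ROR2 2 of 16 were higher and 1 lower, around RYK 2 of 8 were higher, and around ROR1 and WNT7A none of 11 and 12 was called. The median log2 fold changes around these 6 genes lay between -0.08 and 0.27, beside 0.004 over all genes tested. Neighbouring genes are not independent of one another. Whether some of them passed the minimum mean through 1 line alone was not examined, so nothing is read from these counts.

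The genes whose profile over the 6 libraries was closest to that of WNT5A, by the Euclidean distance between centred log2(normalized count + 1) values, were F2RL2 at 0.57, AKR1C1 at 0.65, AKR1C3 at 0.71, SPP1 at 1.02 and AL033397.1 at 1.29. F2RL2, a protease-activated receptor gene, was at 0 in every KYSE450 library and at 992, 795 and 739 normalized counts in KEAP1null-KYSE450, so its distance depends on the pseudocount, as does that of AL033397.1 with 5 reads in KYSE450. AKR1C1 and AKR1C3, aldo-keto reductases widely used as NRF2 target genes, went from 788, 713 and 795 to 518442, 561810 and 590135 normalized counts and from 209, 192 and 204 to 125959, 164818 and 163761. SPP1, which encodes the secreted protein osteopontin, went from 136, 180 and 212 to 109367, 116392 and 118806, and AL033397.1, a long noncoding RNA, from 1.07, 1.01 and 2.80 to 1631, 1836 and 1480. With 3 libraries in each line, this likeness reflects the size of the step between the lines more than any variation within them.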

How the data were processed

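Total RNA of KYSE450 and KEAP1null-KYSE450 cells was sequenced, with 3 libraries per line. The values deposited are a signal, read counts per gene that the authors had divided by 1 factor per library. The submitters' processing notes name FastQC 0.11.5, cutadapt 1.12, STAR 2.6.90c, featureCounts 1.5.1 and hg38. The strand setting and the handling of reads with several matches are not given in the sources used here. The matrix columns name the line but no replicate, so libraries are numbered in column order, and 0 columns belonged to other samples.

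In every library, 100% of values were whole multiples of the smallest value above 0 within 0.01 read, and this gave the reads recovered per library. Genes with a mean of at least 10 were tested on log2(normalized count + 1) with limma 3.58.1 in R 4.3.3 (lmFit, eBayes with trend), with Benjamini-Hochberg adjustment over all 16701 genes tested. The study's methods name DESeq2 on counts, but the values are normalized counts, so limma was used. Fold changes on this scale understate the change of low genes. edgeR 4.0.16 and DESeq2 1.42.0 were run as alternatives on reads of the 4 libraries whose recovery was accepted, and edgeR on all 6 was added after seeing the data. The script was tested on simulated data. Levels per kb divide the normalized count by the union of annotated exons. Counting intervals and the floor of 3 reads cover counting error only. Windows were compared with chromosome 3 by blastn 2.17.0, and protein comparisons use the longest reading frame.

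The genes described and the pathway lists were chosen with earlier results of these data known. Genes named are KEAP1, the 10 members, list genes past both thresholds (up to 6 per direction and list), the most abundant list genes, genes within 1 Mb of WNT5A and the 5 profiles closest to WNT5A, while other pathway genes given with values that were not called were chosen after their values were seen.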

Additional observations from a re-analysis of the deposited data

How the results depend on the processing

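The direction of the 9 members given a difference stayed as given under other pseudocounts, both rescalings and omission of single libraries, the alternatives computed for them. The direction of each called pathway gene stayed as given under each alternative that gave it a value, and WNT3A, WIF1, AXIN2 and PRICKLE2 had none with a minimum mean of 100. Other pseudocounts, rescaling to one total, eBayes without trend, edgeR, DESeq2 and omission of single libraries left the counts of calls within 1.5 times of those reported. With a minimum mean of 100, 12341 genes were tested, of which 875 were called higher and 683 lower. In the Wnt pathway 7 were then called higher. The cause of the uneven loss of calls was not tested. After quantile normalization 13 pathway genes were called lower instead of 8, and the cause was not tested. Leaving out 1 library at a time gave 1708 to 2057 genes higher and 860 to 1106 lower over all genes, and 10 to 12 higher and 8 to 11 lower in the pathway. Of 300 fold changes of called pathway genes under alternatives, 289 kept the call and 11 lost it, 8 of them for WNT3A and 3 for WIF1. No paired analysis was possible because the matrix columns carry no replicate numbers. Genes near 3 reads in one line (AC121764.1, ROR2, WNT5A-AS1, SOST, F2RL2, AL033397.1) have log2 differences that depend on the pseudocount.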
